A study of Homo sapiens with 6 samples.

Results

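Kinesins are motor proteins that walk along microtubules or take them apart, using the energy of ATP. The genes described here are those whose symbol is KIF followed by a number, with or without a letter A to C, or KIFC1, KIFC2 or KIFC3. Of the 28395 Gene IDs counted in each library, 42 met this rule. They were sorted by textbook role into 14 mitotic kinesins, 15 transport kinesins, 6 kinesins of cilia and axonemes and 7 others. The sorting used no value of these data, although earlier results of the data were known when it was made.

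Mitotic kinesins build the spindle, move chromosomes and complete cytokinesis, and many of their genes are transcribed late in the cell cycle. Transport kinesins carry vesicles, organelles, proteins and RNA through the cytoplasm in cells that divide and in cells that do not. In melanocytes and melanoma cells, microtubule motors also move melanosomes and the endosomes that supply them.

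The cells were A375, a long-established human melanoma cell line whose BRAF gene carries an activating mutation. Libraries came from cells grown for 72 h in 1 of 3 conditions. The control group received the vehicle DMSO at 0.01%. A second group received palbociclib, an inhibitor of the cell-cycle kinases CDK4 and CDK6, at 1 µM, and a further group received GSK3326595, which inhibits PRMT5, an enzyme that methylates arginines, at 500 nM. The labels name no other genetic change or agent, and all groups share the same line and medium. Each group had 2 libraries. Whether these came from separate cultures is not stated in the labels. The p-values therefore rest on the spread between libraries, some or all of which may be technical.

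RNA was depleted of ribosomal RNA and sequenced in bulk, and reads were counted per gene. Totals ran from 16589153 to 20842099 counts per library. Values are given as counts per 1000000 reads (CPM), with library sizes scaled by the trimmed mean of M values. The melanocyte regulators SOX10 and MITF were present in every library, at 122 to 237 CPM and 57.4 to 87.4 CPM. The pigment genes PMEL and MLANA were low, at 0.937 to 2.45 CPM, and TYR was at 0 in 5 of the 6 libraries. S100B was at 3.12 to 10.9 CPM and DCT at no more than 0.466 CPM. Of these 7 lineage markers, 5 could be tested: S100B rose with palbociclib (log2 fold change 1.66) and MITF rose with GSK3326595 (0.49). Between the inhibitors, SOX10 (0.63) and S100B (1.54) were higher and MITF (-0.50) was lower with palbociclib. The 10 markers of other cell types summed to 97.8 to 128 CPM per library, with 63.1 to 89.1 CPM of CD68, at most 28.3 of PDGFRB, 3.5 to 14.1 of LYZ, 1.98 to 8.36 of KRT14 and 1.34 to 4.01 of PECAM1. KRT5 (0.223 to 1.1 CPM) and EPCAM (0.0521 to 0.711 CPM) were lower, and PTPRC, CD3E and CDH5 did not exceed 0.233 CPM in any library. Of those markers, 6 could be tested: LYZ and KRT14 rose and CD68, PECAM1 and PDGFRB fell with palbociclib, and CD68 fell with GSK3326595. Their part in the results was not tested.

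Differences were tested with edgeR's quasi-likelihood test across 16381 genes, and a gene was called when its Benjamini-Hochberg adjusted p was under 0.05. Log2 fold changes are given ± their standard error (SE). Of the 42 kinesins, 38 had enough counts to be tested. The other 4 were nearly silent: KIF2B had 0 counts over all 6 libraries, KIF19 and KIF25 had 2 each, and KIF26A had 20. KIF2B is a spindle depolymerase, KIF19 shortens cilia, and KIF25 and KIF26A belong to the remaining kinesins. The zero for KIF2B allows up to 3 counts over the 6 libraries, a limit that covers counting error only.

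With palbociclib, 12 of the 13 tested mitotic kinesins fell and none rose, with a median log2 fold change of -1.48 and a range from -1.78 to -0.36. Of these, 10 were at least 2-fold lower than with DMSO. Over all tested genes, 20.2% were called lower and 19.3% higher, with a median of -0.02. With GSK3326595, 12 of the 13 fell as well and none rose, with a median of -0.86 and a range from -1.25 to -0.50. Only KIF14 and KIF15 were called and at least 2-fold lower there. In that comparison 10.2% of all tested genes were called lower and 8.58% higher. Both comparisons use the same 2 DMSO libraries, so the 2 sets of calls are not independent. In bulk RNA, fewer dividing cells and less of a transcript per dividing cell cannot be told apart.

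The 15 transport kinesins showed no such common direction. With palbociclib, 5 rose, 3 fell and 7 were not called, around a median log2 fold change of 0.19. With GSK3326595, 1 rose, 3 fell and 11 were not called, around a median of -0.02. The shares of all genes called are those given for the mitotic class, 19.3% higher and 20.2% lower with palbociclib and 8.58% and 10.2% with GSK3326595.

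**Figure D1:**
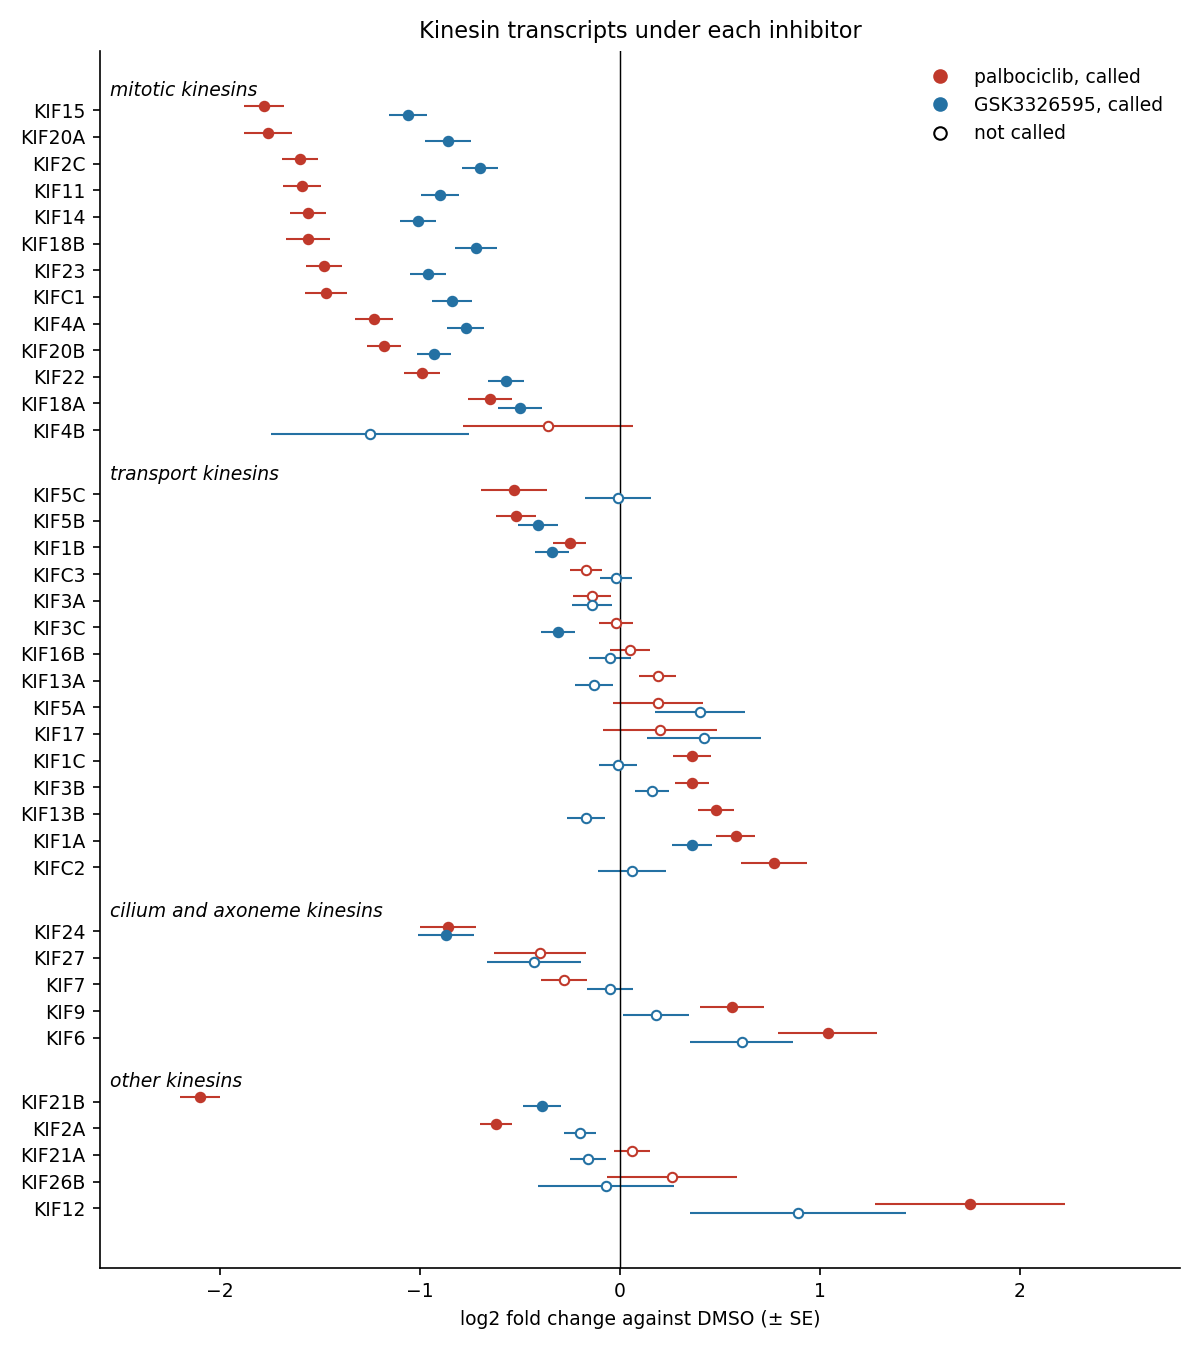
Log2 fold change against DMSO (horizontal axis, ± SE) for the 38 tested kinesins, in 4 role classes, with palbociclib in red and GSK3326595 in blue; filled points were called at an adjusted p under 0.05 and open points were not. The called mitotic kinesins lie between -1.78 and -0.50, with palbociclib to the left of GSK3326595 for each of the 12, while transport kinesins lie on both sides of 0.

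The promoters of these genes are shown because the mitotic class moved together. Genes of the late cell cycle often carry a cell cycle genes homology region (CHR), read here as TTTGAA or TTTAAA, downstream of a CCAAT box, the site of the factor NF-Y. The CHR is bound by the DREAM and MuvB complexes, which repress or activate such genes by cell-cycle stage. Sequences are from RefSeq on GRCh38.p14, each window holding 250 bases before and 50 bases after an annotated start. Of the 42 kinesins, 34 had at least 1 window, 43 windows in all. KIF13B, KIF19, KIF21B, KIF26B, KIF27, KIF5A, KIFC2 and KIFC3 had none.

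Below, capitals mark a CHR or a CCAAT box on either strand, so a box on the opposite strand reads ATTGG and a CHR on the opposite strand reads TTCAAA. Each sequence is given 5′ to 3′ along the gene, and positions count from the annotated start, with -1 the last base before it. The first 5 lines cover positions -110 to -16, a stretch that holds no annotated exon in GENCODE v29. They show 3 mitotic kinesins that fell with both inhibitors (KIF11, KIF4A and KIF18B) and 2 transport kinesins that rose with palbociclib (KIF3B and KIF1C).
KIF11: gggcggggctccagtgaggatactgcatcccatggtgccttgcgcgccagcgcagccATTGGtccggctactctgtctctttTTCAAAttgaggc
KIF4A: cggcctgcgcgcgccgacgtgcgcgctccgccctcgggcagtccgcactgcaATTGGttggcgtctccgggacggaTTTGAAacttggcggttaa
KIF18B: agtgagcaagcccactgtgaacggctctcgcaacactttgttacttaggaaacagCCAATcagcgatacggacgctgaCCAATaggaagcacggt
KIF3B: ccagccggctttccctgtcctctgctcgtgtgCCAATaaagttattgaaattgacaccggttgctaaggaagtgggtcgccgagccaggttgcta
KIF1C: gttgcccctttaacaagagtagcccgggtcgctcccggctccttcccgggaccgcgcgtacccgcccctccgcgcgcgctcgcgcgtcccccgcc
The KIF11 stretch is chr10:92593020-92593114 on the plus strand and lies in no annotated gene. The KIF4A stretch is chrX:70289994-70290088 on the plus strand, inside the divergent gene PDZD11 but outside its exons. The KIF18B stretch is chr17:44947789-44947883 on the minus strand and lies in no annotated gene. The KIF3B stretch is chr20:32277541-32277635 and the KIF1C stretch is chr17:4997840-4997934, both on the plus strand and in no annotated gene.

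In KIF11 the CCAAT box began at -53 and the CHR 25 bases further on. KIF4A had the same order with a spacing of 24 bases. KIF18B had 2 CCAAT boxes, at -55 and -32, and its CHR began at position 3 past the start, 34 bases after the nearer box. KIF3B had a CCAAT box at -78 and no CHR in its window, and KIF1C had neither.

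Shorter stretches of 30 bases are shown for 3 further mitotic kinesins, since an exon of another transcript of the same gene covers them. The KIF23 stretch is also covered by an exon of the antisense gene AC027237.3.
KIF23: gggcgctgATTGGcccgTTTGAAatgcgcc
KIF20A: gcgcgtaaTTTAAAatattgtatctgtaac
KIF15: cgatccaagcgccaaaTTCAAAtttgcggc
The KIF23 stretch, chr15:69414277-69414306 on the plus strand, holds its CCAAT box 9 bases ahead of its CHR. The KIF20A stretch, chr5:138179063-138179092 on the plus strand, holds the TTTAAA form, 26 bases after a CCAAT box that lies outside the letters shown. The KIF15 stretch, chr3:44761743-44761772 on the plus strand, has a CHR and no CCAAT box in its window. Directly before that CHR the letters gcgccaaa are the reverse complement of TTTGGCGC, an E2F site, which began at -43.

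Counted by gene, a CHR on either strand was found for 12 of the 14 mitotic kinesins (85.7%) and 2 of the 11 transport kinesins with a window (18.2%, KIF5B and KIF16B). It was found for none of the 4 cilium and axoneme kinesins and none of the 5 others, beside 27.9% of 27305 RefSeq genes. A CCAAT box was found for 11 of the 14 mitotic kinesins (78.6%) and 4 of the 11 transport kinesins (36.4%), beside 39.7% of all genes. Both motifs stood in a window of 10 mitotic kinesins (71.4%) and 1 transport kinesin (9.09%, KIF5B), beside 11.2% of all genes. That count took any order and distance. In KIF5B the CHR, at -140, stood upstream of the box, at -59. In KIF20B the nearest box lay 122 and 128 bases ahead of its CHRs, and in KIFC1 50 bases ahead. The E2F sites TTTCCCGC or TTTGGCGC were in 2.27% of all windows and, among kinesins, in those of KIF15 and KIF25. The sites were searched on both strands, and TTTAAA reads the same on both. The E2F site and the CHR of KIF15 abut without sharing a base. A match is a description of the letters, and these shares carry no test.

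**Figure D2:**
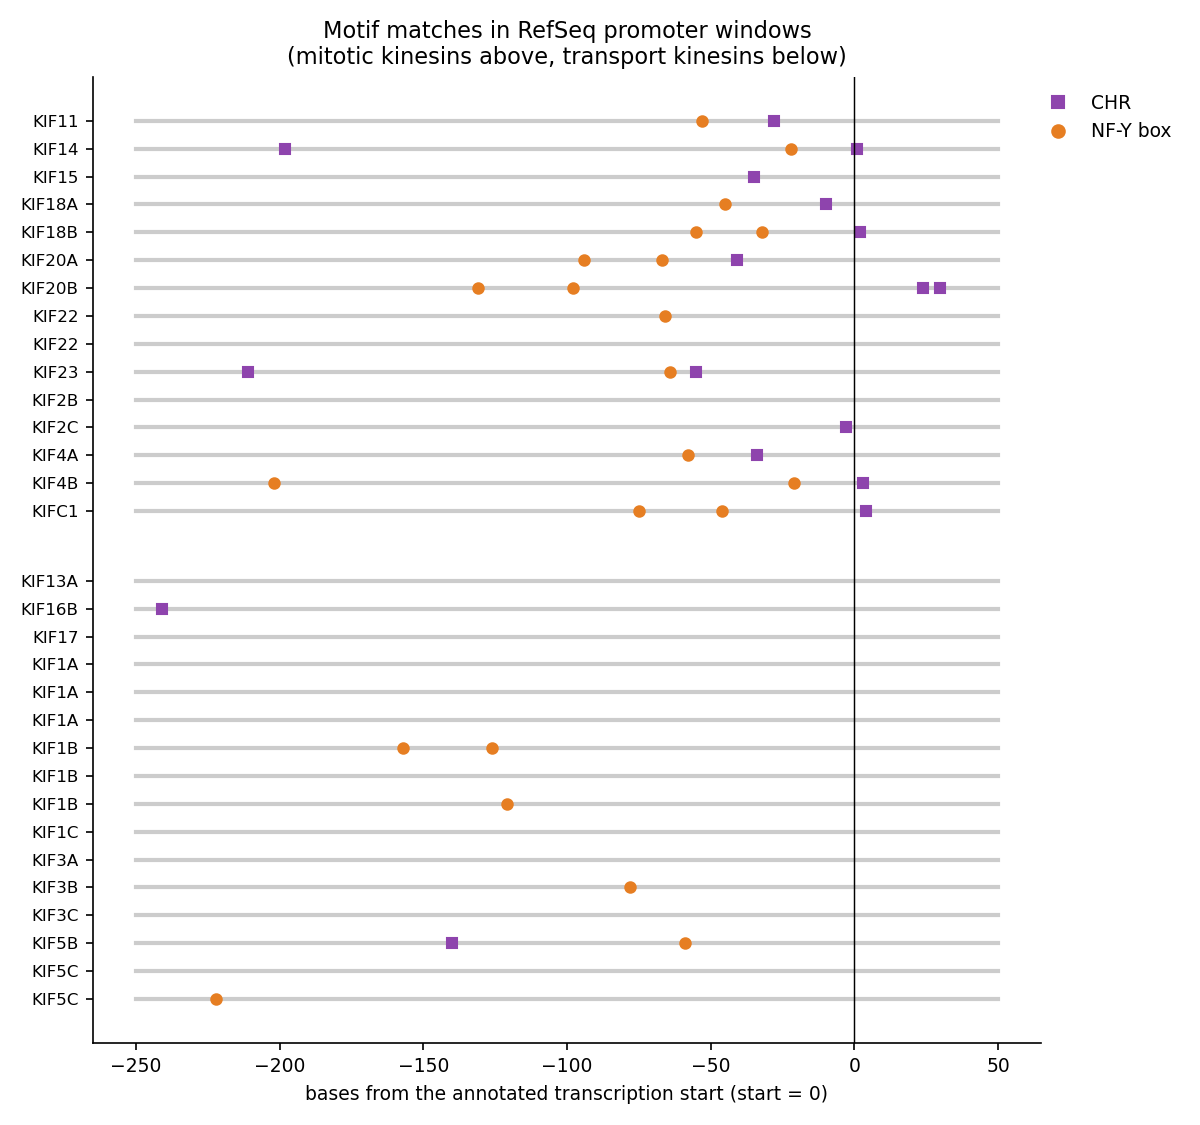
Position of each CHR (purple squares) and NF-Y box (orange circles) in the RefSeq windows of mitotic kinesins (upper block) and transport kinesins (lower block), in bases from the annotated start; each grey line is 1 window, and a gene with several starts has several lines. Squares are present for 12 mitotic and 2 transport genes, and most mitotic squares lie close to the start.

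Not every kinesin that fell had both motifs. KIF22 had a CCAAT box and no CHR in either window, and KIF2C had a CHR at -3 and no CCAAT box. The KIF4B window held a CHR and a CCAAT box 24 bases apart, although its counts were very low. KIF24, of the cilium class, had 3 CCAAT boxes and no CHR. The transport kinesins KIF1B and KIF5C, which fell with palbociclib, had a CCAAT box and no CHR in their windows. KIF2A, which also fell with palbociclib, had neither motif in its window. That these letters are missing says nothing of the factors.

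KIF11, also called Eg5, is the tetrameric motor that slides antiparallel microtubules apart to separate the spindle poles. Its CPM were 226 and 264 with DMSO, 79.5 and 83.3 with palbociclib, and 135 and 128 with GSK3326595. The 3 groups did not overlap, and palbociclib lay lowest. Its log2 fold change was -1.59 ± 0.0949 with palbociclib (edgeR adjusted p = 2.6e-07) and -0.90 ± 0.093 with GSK3326595 (edgeR adjusted p = 8.13e-05). KIF15, which backs up KIF11 in keeping the spindle bipolar, was at 56.1 and 56.6 CPM with DMSO, 16.7 and 16.0 with palbociclib, and 27.2 and 26.9 with GSK3326595. It fell with palbociclib, by 1.78 on the log2 scale (SE 0.0995, edgeR adjusted p = 1.83e-07), and fell by 1.06 with GSK3326595 (SE 0.0965, edgeR adjusted p = 4.14e-05).

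KIFC1 is the minus-end-directed motor that cross-links microtubules and gathers extra spindle poles. It was measured at 60.0 and 64.6 CPM with DMSO, 21.0 and 23.9 with palbociclib, and 35.3 and 34.3 with GSK3326595. Its groups did not overlap. The log2 fold changes were -1.47 ± 0.104 with palbociclib and -0.84 ± 0.102 with GSK3326595, with edgeR adjusted p of 8.6e-07 and 0.000211. The annotated exons of KIFC1 share 12.7% of their bases with the pseudogene RPL12P1 on the opposite strand.

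KIF2C, the depolymerase that corrects faulty attachments at centromeres, was at 139 and 151 CPM with DMSO, 46.0 and 49.9 with palbociclib, and 93.4 and 84.7 with GSK3326595. Its groups did not overlap, with log2 fold changes of -1.60 ± 0.0915 and -0.70 ± 0.0889 against DMSO. KIF18A and KIF18B act at microtubule plus ends, where KIF18A damps chromosome oscillations and KIF18B shortens astral microtubules. KIF18A had 37.1 and 43.3 CPM with DMSO, 25.4 and 25.9 with palbociclib, and 29.4 and 27.6 with GSK3326595. It fell by 0.65 on the log2 scale with palbociclib (edgeR adjusted p = 0.000585) and by 0.50 with GSK3326595 (edgeR adjusted p = 0.00839). The GSK3326595 call did not hold when DMSO replicate 2, the higher DMSO library, was omitted, at a log2 fold change of -0.38 and an adjusted p of 0.0718. KIF18B, at 113 and 114 CPM with DMSO, was at 33.5 and 43.1 with palbociclib and 70.5 and 67.0 with GSK3326595. For KIF18B the log2 fold changes were -1.56 and -0.72.

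KIF4A and KIF22 are chromokinesins, motors that ride on chromosome arms, and KIF4A also works with PRC1 to shape the central spindle. KIF4A was at 95.8 and 102 CPM with DMSO, 39.7 and 44.7 with palbociclib, and 60.0 and 56.3 with GSK3326595, in groups that did not overlap. Its log2 fold changes were -1.23 ± 0.0935 and -0.77 ± 0.0924 (edgeR adjusted p = 1.44e-06 and 0.000202). KIF22 was at 107 and 115 CPM with DMSO, 52.7 and 58.9 with palbociclib, and 76.9 and 72.2 with GSK3326595. KIF22 had log2 fold changes of -0.99 and -0.57. The annotated exons of KIF22 share 13.0% of their bases with the antisense gene AC009133.4 on the opposite strand. KIF4B is a close relative of KIF4A, with 94.7% identity between their transcripts. It had 0.233 to 0.729 CPM and 58 counts in all, was not called in either comparison (log2 fold changes of -0.36 ± 0.426 and -1.25 ± 0.497), and may share reads with KIF4A.

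The remaining mitotic kinesins act in cytokinesis. KIF14 recruits citron kinase to the midbody, and its CPM were 140 and 153 with DMSO, 50.9 and 48.5 with palbociclib, and 77.0 and 68.3 with GSK3326595. KIF14 had log2 fold changes of -1.56 ± 0.0913 and -1.01 ± 0.0898, with edgeR adjusted p of 2.39e-07 and 3.9e-05. KIF20A, which moves the chromosomal passenger complex to the spindle midzone, was at 120 and 135 CPM, then 33.1 and 42.0 with palbociclib, and 75.0 and 65.2 with GSK3326595. Its log2 fold changes were -1.76 ± 0.12 and -0.86 ± 0.116 (edgeR adjusted p = 6.38e-07 and 0.000437).

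KIF20B, needed for the last steps of abscission, was at 146 and 155 CPM with DMSO, 66.8 and 65.7 with palbociclib, and 82.8 and 75.5 with GSK3326595. Its log2 fold changes were -1.18 and -0.93, and its values with the 2 inhibitors lay close together. KIF23, the motor subunit of centralspindlin, was at 128 and 141 CPM with DMSO, 46.1 and 50.5 with palbociclib, and 71.6 and 66.5 with GSK3326595. Its log2 fold changes were -1.48 ± 0.0913 and -0.96 ± 0.0899 (edgeR adjusted p = 3.08e-07 and 4.71e-05). All 12 palbociclib calls on mitotic kinesins held in each alternative tried.

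**Figure D3:**
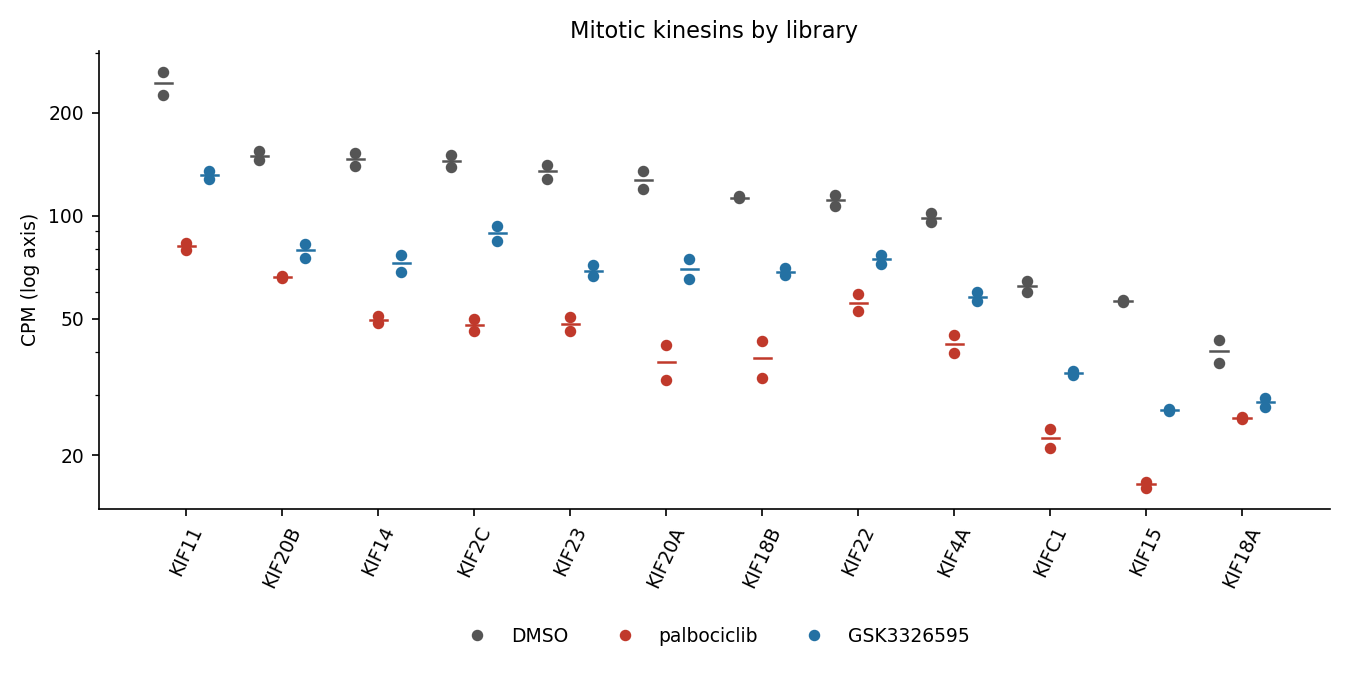
CPM (log axis) of the 12 called mitotic kinesins in each library, with DMSO in grey, palbociclib in red and GSK3326595 in blue; points are libraries and bars are group means (n = 2). DMSO libraries lie highest for every gene and palbociclib libraries lowest for every gene.

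Transcripts of the proteins that work with these motors were also lower. All 15 of the listed partners fell with palbociclib (median log2 fold change -1.22) and all 15 fell with GSK3326595 (median -0.65), beside 20.2% and 10.2% of all tested genes called lower. NUSAP1, a spindle microtubule bundler, was at 120 and 135 CPM with DMSO, 30.9 and 35.0 with palbociclib, and 63.6 and 60.5 with GSK3326595. PRC1, the partner of KIF4A, had log2 fold changes of -1.52 with palbociclib and -0.86 with GSK3326595. For CIT, the citron kinase bound by KIF14, they were -1.16 and -1.12, and for AURKB, the kinase of the passenger complex, -1.83 and -0.93. CENPE is itself a kinesin, carrying chromosomes to the metaphase plate, but its symbol lies outside the rule. It was at 84.9 and 96.0 CPM with DMSO, 40.3 and 45.2 with palbociclib, and 52.9 and 52.0 with GSK3326595, with log2 fold changes of -1.08 and -0.79. The proliferation marker MKI67 was at 550 and 572 CPM with DMSO, 144 and 171 with palbociclib, and 302 and 298 with GSK3326595. It was lower where the mitotic kinesins were, and its part in their change was not tested.

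The mitotic kinesins were lower with palbociclib than with GSK3326595, at the doses used. In the direct comparison 11 of 13 were called lower with palbociclib and none higher (median log2 difference -0.55), where 18.2% of all tested genes were called lower and 16.6% higher. The log2 differences of KIF20A (-0.90 ± 0.12, edgeR adjusted p = 0.00018), KIF2C (-0.89 ± 0.0916, edgeR adjusted p = 3.61e-05) and KIF18B (-0.84 ± 0.111) were within their errors of each other. KIF15 stood at -0.72, KIF11 at -0.69, KIFC1 at -0.63, KIF14 at -0.55, KIF23 at -0.52, KIF4A at -0.46 and KIF22 at -0.42 on the same log2 scale. KIF18A was not called, at -0.15 ± 0.111 (edgeR adjusted p = 0.326), nor was KIF4B, at 0.88 ± 0.512. The call on KIF20B, at -0.26 ± 0.085 (edgeR adjusted p = 0.0344), was lost in 10 of 13 alternatives, with an adjusted p of 0.0707 without DMSO replicate 1, 0.0701 without DMSO replicate 2, 0.156 without palbociclib replicate 1, 0.194 without palbociclib replicate 2 and 0.243 without GSK3326595 replicate 1. DESeq2 gave it an adjusted p of 0.0899. Without palbociclib replicate 1 the adjusted p was also 0.0549 for KIF4A and 0.0761 for KIF22. Of the partners, 13 of 15 were lower with palbociclib, among them MKI67 (-0.93) and NUSAP1 (-0.91), while CIT (-0.04) and INCENP (-0.15) were not called.

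Among transport kinesins, KIF5B is the widely expressed heavy chain of conventional kinesin. Its CPM were 305 and 365 with DMSO, 229 and 240 with palbociclib, and 243 and 262 with GSK3326595. Both inhibitor groups lay below both DMSO libraries and close to each other. KIF5B fell by 0.52 (SE 0.101, edgeR adjusted p = 0.00166) with palbociclib and by 0.41 (SE 0.101, edgeR adjusted p = 0.0153) with GSK3326595. The GSK3326595 call did not hold when DMSO replicate 2 (-0.28, adjusted p = 0.145) or GSK3326595 replicate 1 (-0.36, adjusted p = 0.0543) was omitted. KIF5B differed between the inhibitors by -0.11 ± 0.101 (edgeR adjusted p = 0.452).

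The other conventional heavy chains, KIF5A and KIF5C, are best known from neurons and were low here. KIF5C was at 8.65 and 9.47 CPM with DMSO, 5.79 and 6.73 with palbociclib, and 8.98 and 9.03 with GSK3326595. It fell by 0.53 with palbociclib (edgeR adjusted p = 0.023), which missed the threshold when DMSO replicate 2 (0.143), palbociclib replicate 1 (0.178) or palbociclib replicate 2 (0.0564) was omitted and with DESeq2 (0.0727). KIF5A stayed between 2.97 and 4.25 CPM and was not called.

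The kinesin-3 motors KIF1A, KIF1B and KIF1C carry vesicles, and KIF1B also carries mitochondria. KIF1A, best known for synaptic vesicle precursors, was at 27.3 and 26.7 CPM with DMSO, 39.2 and 41.2 with palbociclib, and 35.3 and 33.7 with GSK3326595. It rose by 0.58 ± 0.0979 on the log2 scale with palbociclib (edgeR adjusted p = 0.000655) and by 0.36 ± 0.0991 with GSK3326595 (edgeR adjusted p = 0.0273), the 1 transport kinesin that rose there. The rise with GSK3326595 missed the threshold when DMSO replicate 1 (adjusted p = 0.116), DMSO replicate 2 (0.119) or GSK3326595 replicate 1 (0.0839) was omitted. KIF1B, at 145 and 153 CPM with DMSO, was at 125 and 126 with palbociclib and 113 and 123 with GSK3326595. Its log2 fold changes were -0.25 ± 0.0825 (edgeR adjusted p = 0.0306) and -0.34 ± 0.0829 (edgeR adjusted p = 0.0153).

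The palbociclib call on KIF1B was lost in 7 of 13 alternatives: without any single library of the compared groups, with adjusted p of 0.0625 (DMSO replicate 1), 0.228 (DMSO replicate 2), 0.174 (palbociclib replicate 1) and 0.151 (palbociclib replicate 2), and with DESeq2 (0.078), DESeq2 size factors in edgeR (0.0526) or no filter on low counts (0.0531). Its GSK3326595 call was lost without DMSO replicate 2 (0.104) or GSK3326595 replicate 1 (0.0871). KIF1C had 152 and 166 CPM with DMSO, 201 and 206 with palbociclib, and 145 and 171 with GSK3326595. It rose with palbociclib, by 0.36 (edgeR adjusted p = 0.0111), and overlapped DMSO with GSK3326595. The KIF1C call was lost without DMSO replicate 1 (0.0979), palbociclib replicate 1 (0.0538) or palbociclib replicate 2 (0.0774).

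KIF13B and KIF13A are related motors, of which KIF13A moves recycling endosomes that feed melanosomes in melanocytes. KIF13B was at 53.7 and 50.0 CPM with DMSO, 73.4 and 71.4 with palbociclib, and 48.2 and 43.7 with GSK3326595. Palbociclib libraries lay above all others, and GSK3326595 libraries lay just below DMSO. KIF13B rose by 0.48 ± 0.0917 with palbociclib (edgeR adjusted p = 0.00138) and was at -0.17 ± 0.0935 with GSK3326595 (edgeR adjusted p = 0.222). The difference between the inhibitors was 0.66 ± 0.0925 on the log2 scale (edgeR adjusted p = 0.000258), and it held in each of the 13 alternatives. KIF13A was at 39.2 and 40.1 CPM with DMSO, 44.6 and 45.8 with palbociclib, and 35.8 and 36.8 with GSK3326595. It was called only between the inhibitors, at 0.32 (edgeR adjusted p = 0.0197), a call lost without palbociclib replicate 1 (0.0847), palbociclib replicate 2 (0.124) or GSK3326595 replicate 1 (0.0654).

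The heterotrimeric kinesin-2 motor joins KIF3A with KIF3B or KIF3C and serves both cytoplasmic and ciliary transport. Its subunits differed in their calls, and the difference between subunits was not tested. KIF3B was at 110 and 116 CPM with DMSO, 144 and 148 with palbociclib, and 121 and 132 with GSK3326595, and rose with palbociclib by 0.36 ± 0.0832 (edgeR adjusted p = 0.00458). Without palbociclib replicate 2 its adjusted p was 0.0511. KIF3C was at 113 and 109 CPM with DMSO, 113 and 106 with palbociclib, and 85.6 and 93.9 with GSK3326595. It fell with GSK3326595 by 0.31 (edgeR adjusted p = 0.0268), and lay 0.29 higher with palbociclib than with GSK3326595 (edgeR adjusted p = 0.0203). The first call was lost without any of DMSO replicate 1 (0.118), DMSO replicate 2 (0.0778), palbociclib replicate 1 (0.0554), palbociclib replicate 2 (0.0559) and GSK3326595 replicate 1 (0.133), and when only the 2 groups compared were fitted (0.0541). KIF3A, at 30.3 to 34.6 CPM in all libraries, was not called in any comparison, and its 2 log2 fold changes against DMSO were both -0.14.

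KIFC2 and KIFC3 belong to the minus-end-directed family. KIFC2 was at 32.4 and 24.1 CPM with DMSO, 52.8 and 43.7 with palbociclib, and 33.9 and 24.9 with GSK3326595. Replicate 1 was the higher library in each group, and palbociclib libraries lay above all others. KIFC2 rose by 0.77 ± 0.164 with palbociclib (edgeR adjusted p = 0.00285) and lay 0.71 ± 0.164 higher than with GSK3326595 (edgeR adjusted p = 0.00558). Its annotated exons share 17.8% of their bases with FOXH1 on the opposite strand, and the strand setting of the counting is not given in the sources used here. KIFC3, at 151 to 171 CPM, was not called (log2 fold changes of -0.17 and -0.02). KIF16B, a motor of early endosomes, had 28.1 to 32.3 CPM, and KIF17, a dendritic vesicle motor, had 1.78 to 2.62 CPM, and neither was called.

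Between the inhibitors, 5 transport kinesins were called higher with palbociclib (KIF13B, KIFC2, KIF1C, KIF13A and KIF3C) and 1 lower (KIF5C, at -0.52, edgeR adjusted p = 0.0294). The median of the 15 was 0.10, and 16.6% and 18.2% of all genes were called higher and lower. Several of these calls were lost when a single library was left out, although the log2 differences kept their sign. Why the calls were lost was not tested. Leaving out palbociclib replicate 1, palbociclib replicate 2 or GSK3326595 replicate 1 left 2 higher calls in place of 5, those on KIF13B and KIFC2. In the same order of libraries, the adjusted p was 0.0596, 0.0811 and 0.0938 for KIF1C and 0.183, 0.0622 and 0.118 for KIF3C. The KIF5C call was lost without any of these 3 libraries (0.212, 0.0678 and 0.0621) or GSK3326595 replicate 2 (0.0666) and with DESeq2 (0.0861), which left 0 lower calls. Against DMSO, the higher calls with palbociclib numbered 3 without palbociclib replicate 2. The lower calls numbered 1 in place of 3 without DMSO replicate 2, palbociclib replicate 1 or palbociclib replicate 2. With GSK3326595 the lower calls numbered 0 without DMSO replicate 2 or GSK3326595 replicate 1, and the higher call numbered 0 without GSK3326595 replicate 1 or without either DMSO library.

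**Figure D4:**
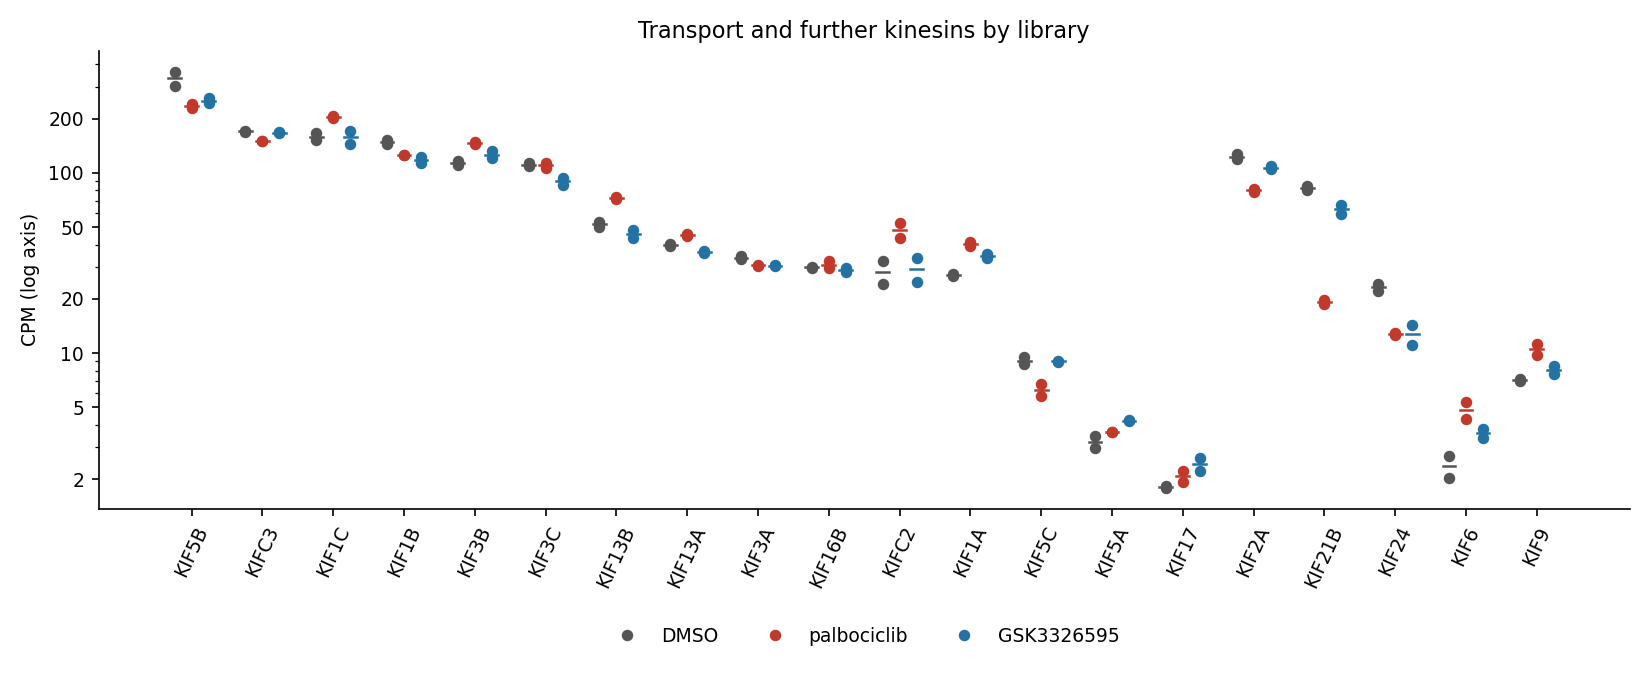
CPM (log axis) in each library for the 15 transport kinesins and, at the right, KIF2A, KIF21B, KIF24, KIF6 and KIF9, with DMSO in grey, palbociclib in red and GSK3326595 in blue; points are libraries and bars are group means (n = 2). KIF13B and KIFC2 lie higher with palbociclib alone, KIF5B lies lower with both inhibitors, and KIF21B drops from above 80 CPM to below 20 CPM with palbociclib.

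Adaptors and light chains link transport kinesins to cargo. Of 15 tested, 4 rose and none fell with palbociclib (median log2 fold change 0.09), and 2 rose and none fell with GSK3326595 (median -0.01). Of all tested genes, 19.3% rose and 20.2% fell with palbociclib, and 8.58% rose and 10.2% fell with GSK3326595. MAPK8IP1, the JNK scaffold that links cargo to kinesin light chains, was at 18.0 and 19.4 CPM with DMSO, 41.6 and 44.4 with palbociclib, and 28.2 and 31.0 with GSK3326595. It rose by 1.2 ± 0.107 (edgeR adjusted p = 4.97e-06) and 0.66 ± 0.109 (edgeR adjusted p = 0.00162). The related MAPK8IP3 rose by 0.52 with palbociclib and by 0.44 with GSK3326595. TRAK2, which links KIF5 to mitochondria, lay 0.52 higher with palbociclib than with GSK3326595, and PLEKHM2, which joins lysosomes to kinesin, lay 0.26 higher. None of the 4 light chains KLC1 to KLC4 was called against DMSO, and neither was the kinesin-2 subunit KIFAP3.

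Cytoplasmic dynein, the motor of the opposite direction, and its activator dynactin were read for comparison. Of 20 genes, 3 rose and 2 fell with palbociclib, and none rose and 1 fell with GSK3326595, with medians of 0.09 and -0.05. The shares of all tested genes were 19.3% and 20.2%, then 8.58% and 10.2%. NDE1, a dynein regulator that also acts in mitosis, was the gene that fell with both. It was at 65.8 and 67.3 CPM with DMSO, 33.9 and 34.6 with palbociclib, and 45.9 and 46.2 with GSK3326595, with log2 fold changes of -0.96 and -0.53. DCTN5 rose by 0.38 and the light intermediate chain DYNC1LI1 fell by 0.40 with palbociclib. The intermediate chain DYNC1I1 was low, at 1.57 to 4.72 CPM over the libraries. It lay 1.38 ± 0.261 higher with palbociclib than with GSK3326595, and the light chain DYNLT3 lay 0.47 higher.

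Of the cilium and axoneme kinesins, 5 were tested. With palbociclib 2 rose, 1 fell and 2 were not called, and with GSK3326595 none rose, 1 fell and 4 were not called, where 19.3% and 20.2% of all tested genes rose and fell with palbociclib and 8.58% and 10.2% with GSK3326595. KIF24, which restrains cilium assembly at the mother centriole, was at 24.3 and 22.2 CPM with DMSO, 12.6 and 13.0 with palbociclib, and 14.4 and 11.1 with GSK3326595. KIF24 had log2 fold changes of -0.86 ± 0.139 and -0.87 ± 0.141 (edgeR adjusted p = 0.000471 and 0.00145), with the 2 inhibitor groups overlapping. The difference between them was 0.01 ± 0.146 (edgeR adjusted p = 0.959). KIF6 and KIF9 are kinesins of motile cilia. KIF6 was at 2.68 and 2.03 CPM with DMSO, 5.33 and 4.32 with palbociclib, and 3.79 and 3.38 with GSK3326595, and rose by 1.04 with palbociclib (edgeR adjusted p = 0.00576).

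The KIF6 call was lost without DMSO replicate 2 (0.0512) or palbociclib replicate 1 (0.067). KIF9 was at 7.03 and 7.18 CPM with DMSO, 9.80 and 11.2 with palbociclib, and 7.63 and 8.50 with GSK3326595, and rose by 0.56 with palbociclib (edgeR adjusted p = 0.0149). The KIF9 rise missed the threshold when DMSO replicate 1 (0.0639), DMSO replicate 2 (0.051) or palbociclib replicate 2 (0.142) was omitted, and 14.9% of the exon bases of KIF9 are shared with its antisense gene KIF9-AS1. KIF7, a regulator of Hedgehog signalling at the cilium tip, had 24.7 to 34.0 CPM, and KIF27, its close relative, had 3.32 to 5.91 CPM. Neither was called. The annotated exons of KIF7 share 11.8% of their bases with TICRR on the opposite strand.

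KIF21B, which restrains microtubule growth and is classed with neither main group, had the largest fall of the 38 tested kinesins. It was at 80.0 and 85.0 CPM with DMSO, 19.7 and 18.8 with palbociclib, and 66.6 and 59.4 with GSK3326595. The palbociclib libraries stood far below the other 4. Its log2 fold change was -2.10 ± 0.101 with palbociclib (edgeR adjusted p = 1.14e-07) and -0.39 ± 0.0935 with GSK3326595 (edgeR adjusted p = 0.0138). The difference between the inhibitors, -1.71 ± 0.101 (edgeR adjusted p = 2.96e-06), was larger in size than that of any mitotic kinesin. The GSK3326595 call was lost without DMSO replicate 2 (0.0912) or GSK3326595 replicate 2 (0.0752). Its relative KIF21A, at 43.7 to 51.9 CPM, was not called in any comparison.

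KIF2A, a depolymerase of spindle poles that also works in cells that do not divide, was at 119 and 127 CPM with DMSO, 78.5 and 81.7 with palbociclib, and 105 and 109 with GSK3326595. It fell by 0.62 ± 0.0811 with palbociclib (edgeR adjusted p = 9.96e-05) and was at -0.20 ± 0.0806 with GSK3326595 (edgeR adjusted p = 0.0997), with -0.41 ± 0.0813 between the inhibitors (edgeR adjusted p = 0.00221). Its exons share 9.0% of their bases with IPO11 on the same strand. KIF12 was near the detection limit, at 0.279 and 0.312 CPM with DMSO, 1.22 and 0.817 with palbociclib, and 0.641 and 0.466 with GSK3326595, from 71 counts in all. It rose by 1.75 ± 0.474 with palbociclib (edgeR adjusted p = 0.0114), which missed the threshold when DMSO replicate 1 (0.0643), DMSO replicate 2 (0.0524) or palbociclib replicate 1 (0.115) was omitted and with DESeq2 (0.071). KIF26B, at 1.52 to 2.64 CPM, was not called.

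The balance of kinesin reads shifted between the classes. Mitotic kinesins summed to 1367 and 1496 CPM with DMSO, 512 and 553 with palbociclib, and 834 and 773 with GSK3326595. Transport kinesins summed to 1225 and 1298 CPM with DMSO, 1245 and 1254 with palbociclib, and 1103 and 1163 with GSK3326595. The palbociclib sums of transport kinesins thus lay within the DMSO range, and the GSK3326595 sums lay below it. The mitotic sums of the 3 groups did not overlap. As a share of all kinesin CPM, mitotic kinesins made up 46.9% and 47.8% with DMSO, 26.0% and 27.3% with palbociclib, and 37.6% and 35.0% with GSK3326595. The transport share was 42.0% and 41.5% with DMSO, 63.3% and 61.9% with palbociclib, and 49.7% and 52.7% with GSK3326595. These sums weight long and abundant transcripts most and were not tested.

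**Figure D5:**
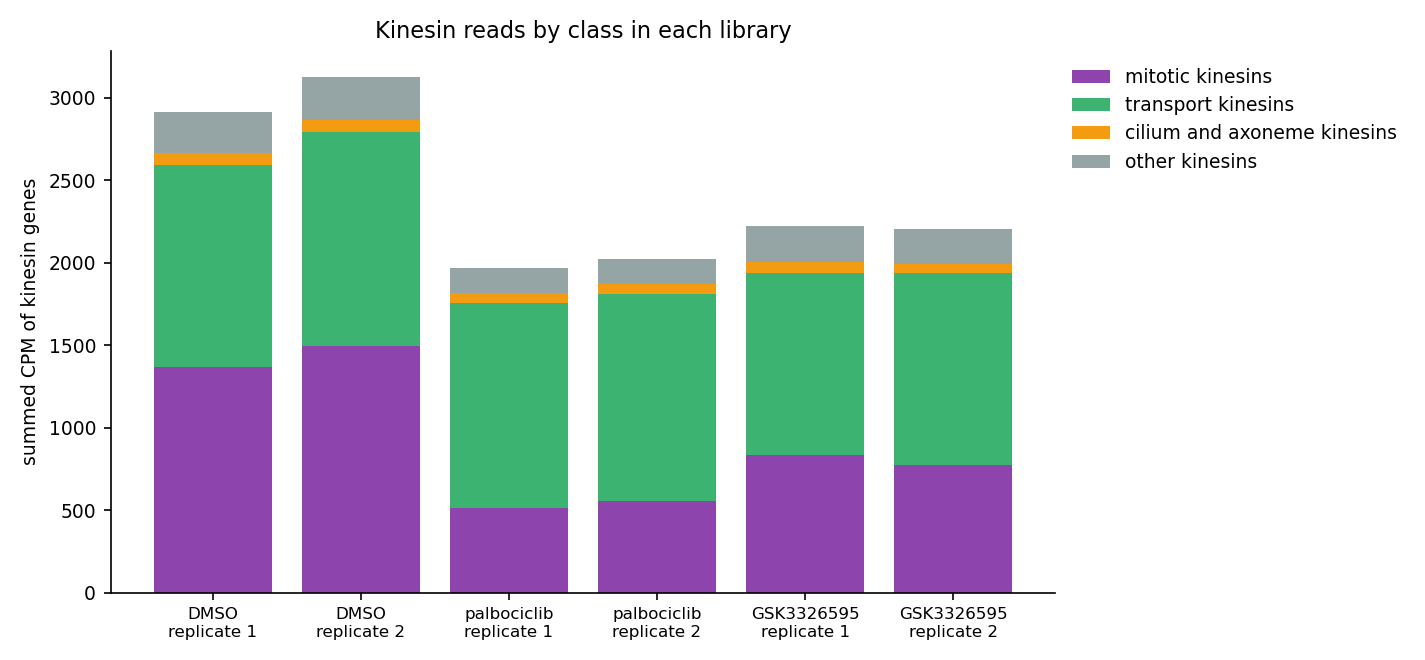
Summed CPM (vertical axis) of the kinesin genes in each library, stacked by class. The mitotic block is tallest with DMSO (1367 and 1496 CPM) and shortest with palbociclib (512 and 553 CPM). The transport block lies between 1103 and 1298 CPM in all 6 libraries and is shortest with GSK3326595.

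Levels between genes were compared as CPM per kilobase of annotated exon. With DMSO, KIF5B was first at 57.0, followed by KIF11 at 50.4, KIF2C at 39.8 and KIF20A at 32.1, so that 3 of the 4 highest kinesins were mitotic. The libraries of KIF5B and KIF11 overlapped. KIF2A and KIF22 came next at 25.7 each, a tie that the spread cannot order. With palbociclib, KIF5B remained first at 39.9, and KIF3B (23.9) and KIF1C (23.7), also transport kinesins, followed. KIF3C (17.1), KIF2A (16.8) and KIF11 (16.7) stood next, at levels per kilobase whose libraries overlapped. With GSK3326595 the order of the first 3 was that of DMSO, with KIF5B at 42.9, KIF11 at 27.1 and KIF2C at 24.4. Exon lengths include every annotated transcript, which lowers these levels where long transcripts are not used. KIF2A and KIF22 also share exon bases with other genes, and what this adds to their levels was not tested.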

How the data were processed

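The deposited values were raw counts per Gene ID, 1 file per library. Per the submitters' processing notes, the authors used CASAVA 1.8.2, cutadapt 1.7, HISAT2, featureCounts 1.6.2 and limma with the hg38 build. For annotation, strand setting and multi-mapping reads, the choice is not given in the sources used here. Of the Gene IDs, 27745 matched a symbol and 650 did not (0.233% to 0.508% of counts). Counts were filtered with filterByExpr (minimum count 10), scaled by TMM and fitted in edgeR 4.0.16 (R 4.3.3) with all 6 libraries in 1 model (3 residual degrees of freedom), two-sided, with Benjamini-Hochberg adjustment over 16381 genes. The code was tested on simulated data. CPM used TMM-scaled library sizes, and exon lengths and overlaps came from GENCODE v29. The 2 libraries of each group differed by more than sampling noise (chi-square per degree of freedom 5.4 to 10.3). Members and gene lists were chosen with earlier results of these data known. Every tested member was named, and per-library CPM were given for the called members with the smallest p of each class and direction, with further members added after their values were seen. From each partner, adaptor and dynein list, the 3 called genes with the smallest p were named, with CENPE and MKI67, except for 1 gene that is not reported here. Alternatives were DESeq2 1.42.0, other scalings and filters, a replicate block, fits of the 2 groups compared, a wider class membership, and leaving out each library.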

Additional observations from a re-analysis of the deposited data

How the results depend on the processing

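Under the alternatives tried, 1474 combinations of a tested kinesin, a comparison and a setting were set beside the reported results. Of these, 1395 kept their side of the threshold, 66 lost the call and 13 gained one. No called value changed sign (0), but 17 uncalled ones did, such as those of KIF26B and KIF16B. With the classes as reported, 12 mitotic kinesins were called lower with palbociclib in every setting, 12 with GSK3326595, or 11 without DMSO replicate 2, and 8 to 11 between the inhibitors. A wider class membership, which adds KIF2A and CENPE, gave 14, 13 and 13. Their medians ran from -1.55 to -1.39, -0.97 to -0.78 and -0.63 to -0.45, and those of transport kinesins from 0.10 to 0.21, -0.10 to -0.02 and 0.07 to 0.17. DESeq2 called 1 transport kinesin lower with palbociclib and 0 lower between the inhibitors, and the wider membership, with KIF21A and KIF21B counted as transport, gave 2 there. Leaving out each library in turn gave 4007 to 7259 genes called with palbociclib, 1765 to 3230 with GSK3326595 and 3312 to 5542 between them. In the same fits, transport kinesins called higher numbered 3 to 5, 0 to 1 and 2 to 5, and those called lower 1 to 3, 0 to 3 and 0 to 1, in the same order of comparisons. With 2 libraries a group, such a fit assumes that the lone library varies like the other groups. The causes were not tested.

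The replicate numbers are shared by the groups, but the labels name no shared batch, so the numbers were not taken to pair the libraries. Deviations of replicate 1 from the group means correlated at 0.40, 0.55 and 0.39 across genes between the groups. With a replicate block, 5769 genes were called with GSK3326595 in place of 3081, and 8716 in place of 6470 with palbociclib. No member lost a call, and 10 calls were gained over the comparisons. With palbociclib they were on KIF13A (edgeR adjusted p = 0.046), KIF7 (0.0124) and KIFC3 (0.0274), and with GSK3326595 on KIF2A (0.0138) and KIF6 (0.0469). Between the inhibitors they were on KIF1A (0.0327), KIF3B (0.0082), KIF7 again (0.0434), KIF9 (0.0316) and KIF21A (0.0195). Depth limits the rarest tested members, such as KIF4B with 58 and KIF12 with 71 counts over all libraries.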
